A study of Mus musculus with 32 samples.

Results

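The genes described here are 10 genes that encode subunits or close partners of the transcription factor activator protein 1 (AP-1), namely Fos, Fosb, Fosl1, Fosl2, Jun, Junb, Jund, Atf3, Maff and Batf. They are a list of symbols drawn up with earlier results of these data known, matched to their Ensembl identifiers in the mouse annotation (GENCODE, build mm10), and make up 10 of the 25059 genes in the deposited tables. The study followed one injection of the platinum drug cisplatin in kidney, liver, lung and spleen of the mouse with 3 assays. RNA-seq counted transcripts, Damage-seq located cisplatin adducts still present in the DNA, and XR-seq sequenced the short oligomers that nucleotide excision repair had cut out around adducts.

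All animals were female wild-type C57BL/6J mice of 6 or 7 months. Treated mice received 10 mg of cisplatin per kg body weight into the peritoneum, and control mice an equal volume of saline. The protocol and the paper place organ collection 4 h after injection, whereas a label of each sample gives 2 h. Each organ had 2 cisplatin libraries in each assay and 2 saline control libraries in RNA-seq, 32 libraries in all, and no label ties a library to an animal, so the p-values measure the spread between these libraries. By a later correction noted in the series, the names control and cisplatin were exchanged for the RNA-seq libraries of lung and of spleen. The corrected labels were used, and every direction given for lung and spleen RNA-seq rests on them.

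Reads on genes numbered 15619474 to 162270280 per library in RNA-seq, 10658675 to 59779770 in XR-seq and 1571167 to 6441367 in Damage-seq. The 2 control libraries of lung, and likewise those of spleen, differed by little more than read sampling (chi-square over its degrees of freedom 2.75 and 2.98, against 39.3 to 349 in the other RNA-seq pairs), so each pair was summed and counted as 1 sample. The paper describes 2 biological replicates for every experiment, and counts with each control library kept as a replicate are given at the end. The organ labels were checked against cell type markers. The summed kidney tubule markers ranged from 22748 to 26929 CPM (reads scaled to a common library size) in kidney and from 2.68 to 122 CPM in the other organs, and hepatocyte, alveolar and B cell markers were likewise highest in liver, lung and spleen. These are bulk tissues, in which fewer cells of a type and less RNA per cell cannot be told apart. In the lung cisplatin libraries 8 of 8 B cell markers (428 to 438 CPM summed in controls, 96.2 to 129.7 CPM after cisplatin) and 7 of 8 T cell markers (186 to 189 and 44.7 to 52.8 CPM) fell, with no marker of either list at 0. In the same lung libraries 2 of 6 adipocyte markers (662 to 674 CPM summed in controls and 41.7 to 124 CPM after cisplatin, none at 0) and 1 of 5 tested markers of high endothelial venules and lymph node stroma (213 to 219 and 21.9 to 34.5 CPM, with Ccl21a at 0 in the controls) fell. In the spleen cisplatin libraries 7 of 8 pancreatic acinar markers rose, from 0.566 to 0.620 CPM summed in controls, where Amy2a5 was at 0, to 1338 to 1836 CPM. Spleen cisplatin replicate 1 also held 401 CPM of summed hepatocyte markers, against 3.20 CPM in replicate 2 and 13.9 to 36.5 CPM in controls. Its summed adipocyte markers were at 91.4 CPM, against 4.83 CPM in replicate 2 and 6.41 to 8.86 CPM in controls. No marker of these 2 lists was called in spleen, and their part in any spleen value was not tested. In kidney 1 of the 2 muscle markers tested rose, from 0.690 to 1.09 CPM summed to 2.83 to 4.87 CPM, and its part in the kidney results was not tested.

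AP-1 is a dimer of basic leucine zipper proteins, usually a Jun protein with a Fos, ATF, Maf or BATF protein, that binds short palindromic elements in DNA. Many of its genes are immediate early genes, transcribed at a low rate in resting tissue and switched on within minutes by mitogen-activated protein (MAP) kinases after growth factors, stress or DNA damage. In kidney, c-Fos, c-Jun and ATF3 are well known responders to acute injury.

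The 250 bases before the annotated start were available from RefSeq (GRCm38.p6) for 9 of the 10 genes, all but Fosl1, with 3 starts for Maff. These starts are not always those of the whole genes used for the counts. The Atf3 window, for example, lies inside the whole gene (chr1:191170296-191218039). The sequences of Fos (chr12:85473640-85473889, plus strand), Jun (chr4:95052223-95052472, minus strand), Atf3 (chr1:191183334-191183583, minus strand) and one Maff start (chr15:79347270-79347519, plus strand) are shown as examples that carry an element searched for. Other windows that carry one are not shown. They are written 5′ to 3′ on the strand of the gene, and capitals mark a match, in either orientation, to the cAMP element TGACGTCA, to its first part TGACG, or to the Jun-type AP-1 element TGACATCA.

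Fos: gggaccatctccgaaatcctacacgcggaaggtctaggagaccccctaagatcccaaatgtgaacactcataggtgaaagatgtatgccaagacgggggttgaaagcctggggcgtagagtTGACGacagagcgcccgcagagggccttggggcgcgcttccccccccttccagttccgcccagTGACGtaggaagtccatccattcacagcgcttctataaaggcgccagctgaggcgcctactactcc
Jun: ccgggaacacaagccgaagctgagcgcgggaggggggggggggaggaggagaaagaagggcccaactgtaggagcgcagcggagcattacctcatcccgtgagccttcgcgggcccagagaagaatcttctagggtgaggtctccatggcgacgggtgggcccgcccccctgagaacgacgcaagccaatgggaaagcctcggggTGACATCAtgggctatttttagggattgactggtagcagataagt
Atf3: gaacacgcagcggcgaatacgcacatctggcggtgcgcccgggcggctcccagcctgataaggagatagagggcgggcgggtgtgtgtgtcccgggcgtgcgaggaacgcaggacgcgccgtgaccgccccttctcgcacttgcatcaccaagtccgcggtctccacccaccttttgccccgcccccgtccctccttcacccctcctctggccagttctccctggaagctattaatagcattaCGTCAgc
Maff: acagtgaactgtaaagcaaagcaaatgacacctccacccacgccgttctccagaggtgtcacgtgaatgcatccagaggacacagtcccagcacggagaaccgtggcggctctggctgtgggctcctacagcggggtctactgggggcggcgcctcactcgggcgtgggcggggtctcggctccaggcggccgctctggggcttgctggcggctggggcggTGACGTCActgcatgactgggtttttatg

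In these windows Fos held TGACG at 129 and 66 bases before the start, Jun held TGACATCA at 45 bases, Atf3 held TGACG at 7 bases on the opposite strand, and Maff held TGACGTCA at 29 bases. TGACG, which is also part of TGACGTCA and is read there on both strands, occurred in 6 of the 9 genes (Fos, Fosb, Junb, Atf3, Maff and Batf) and in 17.8% of the 32851 mouse promoter windows of the same length. TGACGTCA was found for Maff alone (1.55% of windows) and TGACATCA for Jun and Maff (2.93% of windows). The canonical AP-1 element TGAGTCA was in none of the 9 (4.46% of windows). A gene was counted if any of its windows matched (3 windows for Maff), whereas the percentages are per window, so they differ in unit. A match to these letters is a description of the sequence and not evidence of binding.

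The first comparison asked how the RNA of these genes differed between cisplatin and control in each organ. In kidney 9 of the 10 genes rose, between 2.96-fold for Jund and 72.7-fold for Atf3, and Batf had no call. In lung Fos rose 3.36-fold, and no other member passed the test. In liver and spleen no member passed. The quasi-likelihood test of edgeR was run with a log2 threshold of 0.4 (glmTreat), adjusted by Benjamini-Hochberg over all genes of the organ, and a gene was called at an adjusted p under 0.05.

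Of all 15471 genes tested in kidney, 2.4% were called higher and 2.65% lower, beside 9 of 10 members. Since the members were listed with earlier results known, the 2 shares are a description. The median log2 fold change of the members was 3.31, against −0.00297 over all genes. In lung 0.132% of 18210 genes were called higher and 1.96% lower, and the medians were 0.47 for the members and 0.03 over all genes. In spleen 0.164% of 17686 genes were called higher and 0.017% lower, with medians of 0.37 and 0.02. In liver 0% of 13868 genes were called higher and 0% lower, and the medians were 1.18 for 9 members and 0.03 over all genes. Fosl1 had 4 to 12 reads per liver library and did not pass the filter on low counts.

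Counting only whether both cisplatin libraries lay above both control libraries, 9 of 10 members did so in kidney (24.3% of all genes), 7 of the 9 tested in liver (20.2%), 5 of 10 in lung (34.2%) and 6 of 10 in spleen (28.9%). For the liver count of 0 called members, 5 members (Fos, Fosl2, Jun, Jund and Atf3) had an unadjusted p under 0.05, as did 1287 of all genes tested, and DESeq2 with the same fold threshold called 2 members, Jun and Atf3, among 188 genes. For spleen 1 member (Fosl2) had an unadjusted p under 0.05, as did 768 of all genes, and DESeq2 called 0 members among 85 genes.

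**Figure D1:**
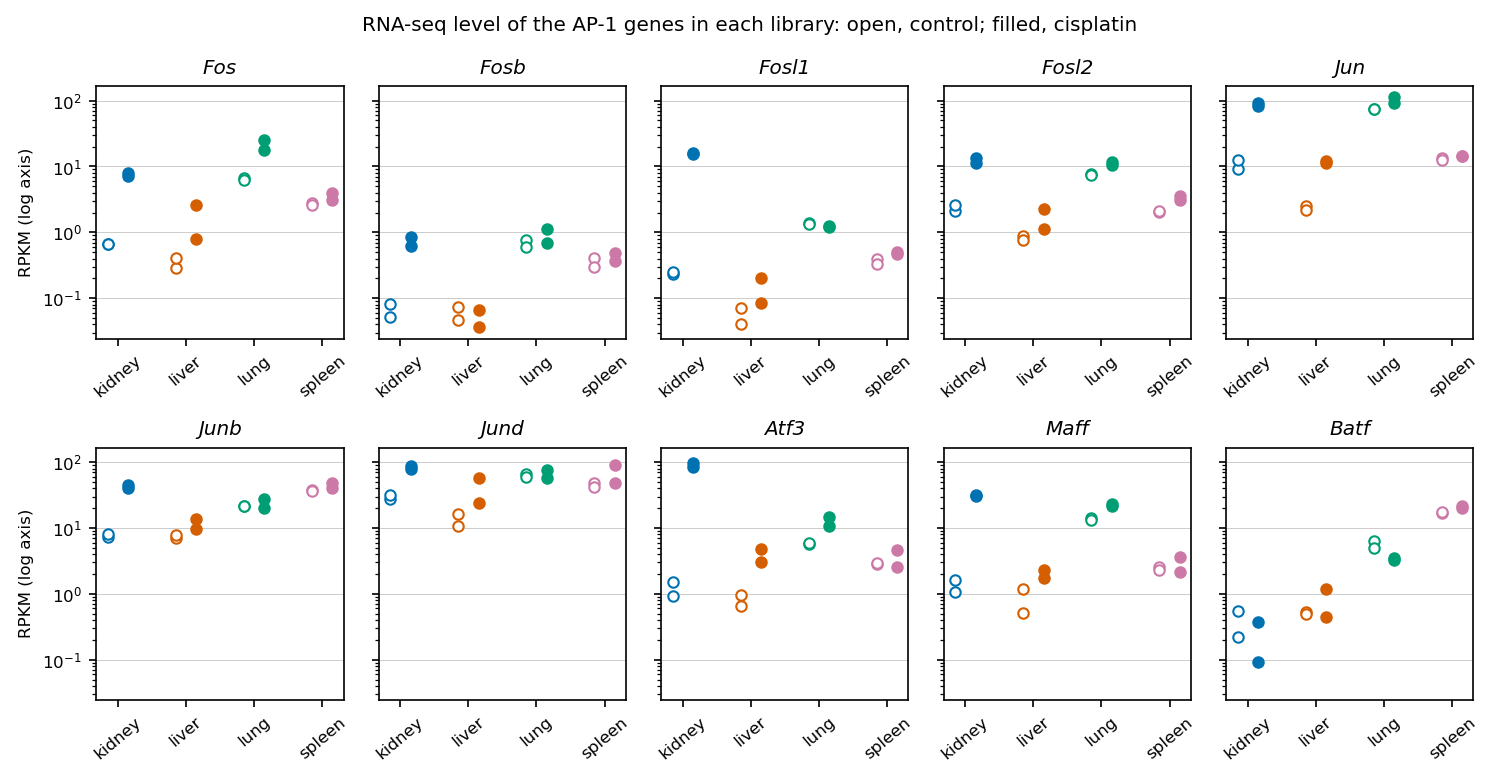
RNA-seq level of each AP-1 gene in every library, as reads scaled to exon length and library depth (RPKM, log axis), by organ. Open points are control libraries and filled points cisplatin libraries. In kidney the filled points of 9 genes lie well above the open ones, from 0.660 and 0.664 to 7.95 and 7.18 RPKM for Fos, and only Batf overlaps.

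The Fos family supplies the partners of Jun proteins that cannot pair with each other. Fos (ENSMUSG00000021250, chr12:85473890-85477273, plus strand) encodes c-Fos, the prototype immediate early protein. Positions here and in the other members are those of the whole gene in mm10. In kidney Fos measured 0.660 and 0.664 RPKM in the controls and 7.95 and 7.18 RPKM after cisplatin. Both treated libraries were high and the groups did not overlap, and the log2 fold change was 3.56 ± 0.25 (SE, 11.8-fold, edgeR adjusted p = 0.00349). The lung controls stood at 6.64 and 6.18 RPKM and the treated libraries at 17.5 and 24.8 RPKM, again without overlap, with a log2 fold change of 1.75 ± 0.27 (SE, edgeR adjusted p = 0.0391). This lung call was lost without control replicate 2. Fos rose in the libraries where the lymphocyte, adipocyte and venule markers given above fell, and their part in its rise was not tested. In liver Fos went from 0.291 and 0.403 RPKM to 2.59 and 0.799 RPKM. The treated pair was above the controls but far apart, and the log2 fold change of 2.16 ± 0.59 (SE) was not called (edgeR adjusted p = 0.272). In spleen the values were 2.80 and 2.62 RPKM in controls and 4.00 and 3.10 RPKM after cisplatin, a log2 fold change of 0.44 ± 0.31 (SE).

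Fosb (ENSMUSG00000003545, chr7:19302696-19310051, minus strand), which encodes FosB and its truncated, long-lived isoform, was the lowest of the family in kidney, with 0.0829 and 0.0524 RPKM in controls (10 and 18 reads) and 0.615 and 0.859 RPKM after cisplatin. The rise of 3.57 ± 0.45 (log2, SE, 11.9-fold) passed the test (edgeR adjusted p = 0.0162) and was of the size seen for Fos. In the other organs Fosb overlapped between control and cisplatin, with log2 differences of −0.29 in liver, 0.50 in lung and 0.40 in spleen.

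Fosl1 (ENSMUSG00000024912, chr19:5447547-5455946, plus strand) encodes Fra-1, a Fos protein without a strong activation domain that usually follows c-Fos in time. It was nearly silent in control kidney, at 0.229 and 0.250 RPKM (9 and 28 reads), and reached 15.5 and 15.8 RPKM (493 and 1713 reads) after cisplatin. The log2 fold change was 6.05 ± 0.27 (SE, 66.1-fold, edgeR adjusted p = 0.0014), next in size to that of Atf3. In lung the order was the opposite without passing the test, with 1.40 and 1.33 RPKM in controls and 1.23 and 1.20 RPKM after cisplatin (log2 difference −0.15 ± 0.35, SE). Spleen showed 0.394 and 0.336 RPKM and then 0.495 and 0.463 RPKM. The 3′ part of Fosl1 overlaps Ccdc85b on the opposite strand over 2767 bases, and the RNA libraries did not mark strand. Ccdc85b itself measured 3.72 and 3.35 RPKM in control kidney and 4.49 and 3.85 RPKM after cisplatin (log2 difference 0.30 ± 0.20, SE), and it was not called in any organ.

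Fosl2 (ENSMUSG00000029135, chr5:32135801-32157842, plus strand), the gene of Fra-2, rose from 2.11 and 2.60 RPKM to 13.5 and 11.1 RPKM in kidney, a log2 fold change of 2.44 ± 0.21 (SE, 5.41-fold, edgeR adjusted p = 0.00694). In lung it was 7.75 and 7.49 RPKM in controls and 11.6 and 10.4 RPKM after cisplatin. In spleen it was 2.01 and 2.11 RPKM in controls and 3.09 and 3.56 RPKM after cisplatin. Neither pair of groups overlapped, but the log2 differences of 0.54 in lung and 0.70 in spleen were not called (edgeR adjusted p = 0.529 and 1.00).

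Jun proteins can dimerize with each other or with Fos proteins. Jun (ENSMUSG00000052684, chr4:95049034-95052222, minus strand) encodes c-Jun, the substrate of the JNK kinases for which these kinases are named. Its kidney values were 9.24 and 12.6 RPKM in controls and 92.8 and 84.2 RPKM after cisplatin, a treated level in the range of Atf3 and Jund and above that of the other members. The change was 3.06 ± 0.24 (log2, SE, 8.36-fold, edgeR adjusted p = 0.00432). In liver Jun moved from 2.52 and 2.19 RPKM to 12.0 and 11.2 RPKM, 5.03-fold, with both pairs tight and far apart. This liver difference was the one closest to the threshold among the members (log2 2.33 ± 0.33, SE, edgeR adjusted p = 0.0911) and was called by DESeq2. Lung started from a much higher level, 75.1 and 74.6 RPKM, and reached 112 and 92.2 RPKM (log2 0.44 ± 0.19, SE, not called). Spleen stayed between 12.7 and 14.7 RPKM in all 4 libraries. Junos, an antisense gene that shares 689 bases with Jun, was at 0.0475 to 0.861 RPKM and was not called in any organ.

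Junb (ENSMUSG00000052837, chr8:84974484-84978718, minus strand), whose product often restrains c-Jun, rose in kidney from 7.24 and 8.16 RPKM to 45.0 and 40.3 RPKM (log2 2.52 ± 0.19, SE, 5.74-fold, edgeR adjusted p = 0.00419). In liver it was 6.96 and 7.94 RPKM in controls and 13.6 and 9.62 RPKM after cisplatin (log2 0.62 ± 0.32, SE, not called). Lung libraries overlapped between 20.2 and 27.4 RPKM, and spleen went from 38.1 and 35.9 RPKM to 47.4 and 40.8 RPKM (log2 0.30 ± 0.19, SE, not called). Prdx2 overlaps Junb over 351 bases on the other strand and was not called in any organ.

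Jund (ENSMUSG00000071076, chr8:70698949-70700616, plus strand), which encodes the Jun protein that most tissues carry at rest, had the highest control level of the members in kidney, 27.5 and 31.2 RPKM, and the smallest rise of the 9, to 78.1 and 88.7 RPKM (log2 1.56 ± 0.19, SE, 2.96-fold, edgeR adjusted p = 0.0178). Without cisplatin replicate 1 the kidney call was lost (edgeR adjusted p = 0.0700). In liver and spleen one treated library stood far above the other, with 24.1 and 57.3 RPKM in liver against controls of 10.9 and 16.0 RPKM, and 89.7 and 47.6 RPKM in spleen against 48.3 and 41.8 RPKM. Neither difference was called (log2 1.69 ± 0.59 and 0.68 ± 0.42, SE).

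Atf3 (ENSMUSG00000026628, chr1:191170296-191218039, minus strand) encodes a stress-induced member of the ATF family that pairs with Jun proteins and represses or activates with them. It had the largest change, from 0.937 and 1.52 RPKM to 83.0 and 95.9 RPKM in kidney (log2 6.18 ± 0.33, SE, 72.7-fold, edgeR adjusted p = 0.00229). In liver the controls were 0.952 and 0.651 RPKM, like those of kidney, and the treated libraries 3.01 and 4.78 RPKM (log2 2.38 ± 0.50, SE, edgeR adjusted p = 0.161, called by DESeq2). In lung Atf3 measured 5.77 and 5.82 RPKM in controls and 14.5 and 10.7 RPKM after cisplatin, 2.16-fold without overlap and without a call (edgeR adjusted p = 0.15). The spleen libraries overlapped, with 2.83 and 2.94 RPKM in controls and 4.62 and 2.54 RPKM after cisplatin.

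Maff (ENSMUSG00000042622, chr15:79346621-79359076, plus strand) encodes a small Maf protein, which lacks an activation domain and pairs with NRF and BACH proteins as well as with Fos proteins. It rose 23.5-fold in kidney, from 1.06 and 1.62 RPKM to 31.4 and 30.8 RPKM (log2 4.55 ± 0.29, SE, edgeR adjusted p = 0.0033). Liver controls measured 0.508 and 1.19 RPKM and treated libraries 2.27 and 1.72 RPKM (log2 1.18 ± 0.54, SE, not called). In lung the values of 14.4 and 13.4 RPKM and then 21.7 and 23.0 RPKM did not overlap, and the log2 difference of 0.71 ± 0.17 (SE) was not called (edgeR adjusted p = 0.245). The 4 spleen libraries overlapped between 2.16 and 3.60 RPKM.

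Batf (ENSMUSG00000034266, chr12:85686669-85709087, plus strand), best known for pairing with Jun proteins and IRF4 in lymphocytes, was the member without a rise in kidney. Its kidney libraries held 6 and 43 reads in controls and 2 and 28 after cisplatin (0.221 and 0.556, then 0.0911 and 0.374 RPKM), too few to measure a change well (log2 −0.58 ± 0.82, SE). In lung it was lower after cisplatin, 6.27 and 4.90 RPKM against 3.51 and 3.30 RPKM, without overlap and without a call (log2 −0.63 ± 0.28, SE, edgeR adjusted p = 0.597), beside the lower B cell, T cell, adipocyte and venule markers of the same libraries, whose part in it was not tested. In spleen it was 16.8 and 17.5 RPKM in controls and 21.9 and 20.2 RPKM after cisplatin (log2 0.32 ± 0.18, SE, not called), beside the acinar markers noted above, whose part in any spleen value was not tested.

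**Figure D2:**
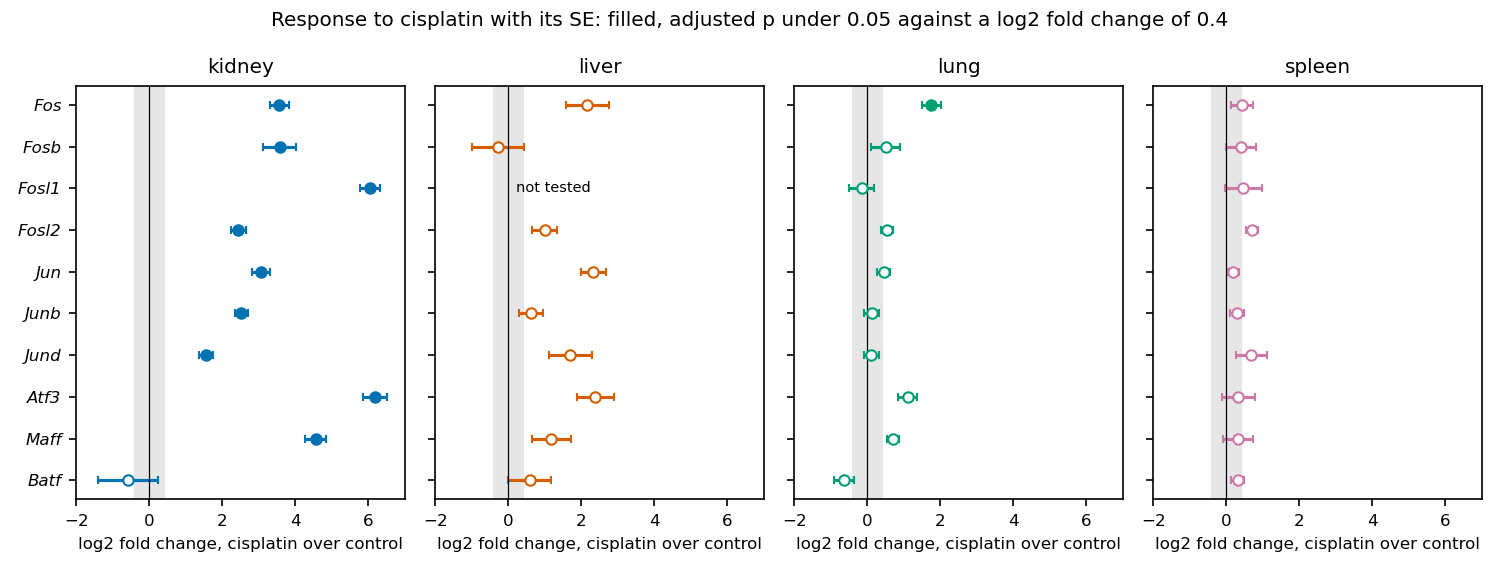
Log2 fold change of cisplatin over control (x axis, with its SE) for each AP-1 gene (y axis) in each organ. Filled points passed the test and the grey band spans log2 changes up to 0.4 in size. In kidney 9 points are filled, up to 6.18 for Atf3, in lung only Fos at 1.75, and in liver and spleen none.

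Whether the response itself differed between organs was tested as an interaction of organ and treatment over all organs in one edgeR fit, with 3 degrees of freedom. The response differed for 4 of the 10 members, Fosl1 (adjusted p = 0.00368), Atf3 (0.0201), Jun (0.0230) and Junb (0.0432), against 0.209% of 19100 genes. Maff had an adjusted p of 0.0565 and was not called. The count changed with single libraries. Fosl1 was called whichever library was left out, and 1 or 2 members were called without kidney control replicate 1 (1) or 2 (2), kidney cisplatin replicate 1 (1) or 2 (1), lung cisplatin replicate 1 (1) or 2 (1) or spleen cisplatin replicate 1 (2), whereas 7 were called without liver cisplatin replicate 1.

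Set against kidney one organ at a time, 10 of the 30 member-by-organ differences were called. The kidney response exceeded that of liver for Fosl1 alone, by 4.77 ± 0.63 (log2, SE, 0.0733% of all genes differed between these organs). It exceeded that of lung for Fosl1 by 6.22, for Atf3 by 5.09, for Jun by 2.62 and for Junb by 2.41 (0.12% of all genes). Against spleen it was larger for Atf3 by 5.94, for Fosl1 by 5.66, for Maff by 4.31, for Jun by 2.93 and for Junb by 2.29 (0.304% of all genes). The kidney response of Jun exceeded that of liver by 0.75 ± 0.34 (log2, SE), and that of Jund was 0.11 ± 0.70 (SE) below it, and neither difference was called. The kidney controls enter all of these differences, so they are not independent of each other. Whichever library was left out, Fosl1 against lung, Fosl1 against spleen and Atf3 against spleen were called, and each of the 7 others lost its call in at least 1 case.

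The second comparison asked how much of each gene the organs carried without the drug. The control level differed between organs for 9 of the 10 members (69.1% of all genes), with Jund as the exception (adjusted p = 0.389, same edgeR fit). On the RPKM scale lung had the highest control level for 8 members and spleen for Junb and Batf, and liver or kidney had the lowest. Neighbours in each order were compared in the same fit, where 36.5% of all genes differed between kidney and liver, 36.2% between kidney and lung, 50.1% between kidney and spleen, 45.2% between liver and lung, 50.9% between liver and spleen and 28.4% between lung and spleen.

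Jun and Maff were set apart in lung. The lung control level of Jun exceeded the next, that of spleen, by 2.47 ± 0.36 (log2, SE), spleen and kidney did not differ beyond their spread, and kidney exceeded liver by 1.35 ± 0.25. Maff was 2.47 ± 0.61 (log2, SE) higher in lung than in spleen, and no call was made between spleen and kidney or between kidney and liver. Fosl1 was 1.86 higher in lung than in spleen and 1.26 higher in kidney than in liver (log2), and Fosl2 was 1.43 higher in lung than in kidney. For Fos and Fosb, lung and spleen did not differ beyond their spread, spleen exceeded kidney by 1.83 and 2.17 (log2), and kidney and liver had no call. For Atf3 and Jund no neighbours were called. Batf was highest in spleen, not beyond its spread from lung (log2 1.78 ± 0.67, SE, adjusted p = 0.0686), and lung exceeded liver by 2.24. For Junb, spleen and lung did not differ beyond their spread and lung exceeded kidney by 1.25, while kidney and liver had nearly equal mean RPKM (7.70 and 7.45) but the fit put kidney 0.84 lower (log2), with TMM scaling factors of 0.518 to 0.720 in liver and 1.04 to 1.36 elsewhere.

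Other genes of the pathway were taken from 3 lists. Of 16 other AP-1, Maf and CREB family partners, 5 rose and 1 fell in kidney, where 2.4% of all 15471 genes were called higher and 2.65% lower. Mafk, another small Maf, rose 3.81-fold, and Bach2, a lymphoid repressor that pairs with small Mafs, fell by 2.71 (log2, ± 0.53 SE, edgeR adjusted p = 0.0464). The summed B cell markers of the same kidney libraries measured 17.2 and 23.4 CPM in controls and 8.96 and 9.87 CPM after cisplatin, with 0 of 8 called, a median log2 difference of −1.35 and none at 0, and their part in the fall of Bach2 was not tested. The others that rose were Atf4 (3.33-fold), Crem (2.88-fold), Bach1 (2.73-fold) and Nfe2l2 (2.09-fold). The list of 18 upstream genes holds kinases of the MAP kinase cascades, Rps6ka5 and the transcription factor genes Elk1, Elk3, Elk4 and Srf. Of these, 1 rose and 2 fell in kidney, namely Map2k3, a kinase of p38 (2.41-fold), Map2k6, another p38 kinase (fell by 2.23, log2), and Map3k5, the ASK1 kinase (fell by 1.85, log2). Among 14 targets tested of 15 listed, 3 rose, Plaur, the urokinase receptor (7.49-fold), Lif, a cytokine (7.30-fold), and Dusp1, a phosphatase that turns MAP kinases off (4.92-fold). The median log2 fold change was 0.26 for the partners, −0.23 for the upstream genes and 0.81 for the targets, against −0.00297 over all genes.

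In lung Dusp1 rose 3.16-fold, and Bach2 fell by 2.50 and Map2k6 fell by 2.48 (log2). Of all 18210 genes tested in lung, 0.132% were called higher and 1.96% lower. Bach2 is also a lymphocyte gene, and its fall stood beside that of the B cell, T cell, adipocyte and venule markers, whose part in it was not tested. In liver none of the 16 partners, 17 upstream genes and 12 targets tested was called by edgeR. An unadjusted p under 0.05 was reached by 2, 2 and 2 of them, and by 1287 of all 13868 genes tested. Of these lists DESeq2 called Bach2 alone, among 188 genes. In spleen none of 16, 18 and 15 was called. An unadjusted p under 0.05 was reached by 0, 0 and 3 of them, and by 768 of all 17686 genes tested. DESeq2 called 0 of them, among 85 genes. In liver Bach2 had a log2 difference of −2.60 (edgeR adjusted p = 0.0968), and in spleen one of −0.12. Dusp1 differed by 1.09 in liver and 1.41 in spleen (log2, neither called).

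XR-seq reads were split by the authors into those on the transcribed strand (TS), which RNA polymerase reads and from which stalled polymerases recruit repair, and those on the non-transcribed strand (NTS). They are given as CPM over all reads on genes, scaled per 1000 GG dinucleotides of that strand, since GG is the main target of cisplatin. These libraries came from treated mice only, so they show repair after cisplatin and no change from a control. TS exceeded NTS for 9 of 10 members in kidney (52.8% of 21610 genes), for 8 in liver (48.1%), for 8 in lung (55.4%) and for 8 in spleen (54.2%). TS was below NTS for Fosl1 in liver (5.72% of genes), lung (6.08%) and spleen (5.8%), and for no member in kidney (4.94%), where the fitted ratio was above 1 for all 10. The test was edgeR's quasi-likelihood test with the library as a block and depth and GG count as offset.

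In Fos the kidney libraries had 51.1 and 109 on TS and 0 and 5.14 on NTS, in CPM per 1000 GG. The 0 was a count of 0 reads, which allows up to 0.668 on this scale for 3 reads, and covers counting error only. The fitted ratio of TS to NTS was 52.5 in kidney, 25.2 in spleen, 16.1 in lung and 15.3 in liver, with all libraries the largest of the members in kidney, liver and spleen. Its NTS rested on 0 and 35 reads in kidney and 7 and 2 in spleen, and the size of these ratios moved with single libraries. The log2 ratio in kidney was 5.71 with all libraries and 4.40 without kidney replicate 1. Without kidney replicate 2 it was 11.9, a fit against the NTS of 0 reads that gives no bound. In spleen it was 4.66 with all libraries, 6.87 without spleen replicate 1 and 2.88 without spleen replicate 2. Taken out of log2, the ratio also moved by more than 1.5-fold from the fit with all libraries for some other members. In log2 these were Maff in kidney (3.04 to 4.38), Batf in liver (1.07 to 2.59), Fosb in spleen (1.81 to 2.88) and Fosl1 in spleen (−5.03 to −3.17). The ends are the fits without one or the other library of that organ. The liver ratio of Fos lost its call without either liver library, the lung ratio without either lung library and the spleen ratio without spleen replicate 2. With all libraries, 36 of the 40 member and organ pairs were called. Leaving out 1 library lost some of these calls and in some cases added that of Batf in lung. The calls lost besides those of Fos were Batf, Maff and Junb in liver, Fosb, Fosl1 and Maff in lung, and Fosb, Junb and Jund in spleen.

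Fosl1 was called higher on TS in kidney and lower on TS in the other organs, and no other member was called in both directions. The difference of its strand ratios between organs was not itself tested. In kidney TS held 50.1 and 62.8 and NTS 10.3 and 18.0 (CPM per 1000 GG), a ratio of 4.10. In liver TS held 1.66 and 2.22 and NTS 18.2 and 19.4, a ratio of 0.102. Lung gave 4.62 and 6.80 on TS and 19.7 and 26.8 on NTS (ratio 0.244), and spleen 0.425 and 2.57 on TS and 14.1 and 23.1 on NTS (ratio 0.0699). The TS libraries of kidney were far above all others, whereas the NTS libraries overlapped between organs. The lung call was lost without lung replicate 1 or 2 (edgeR adjusted p up to 0.0628). Within the overlap with Ccdc85b the NTS of Fosl1 is the strand that serves as TS of Ccdc85b, so the same reads can be counted for both. Ccdc85b had 19.3 to 38.8 on its TS in the 8 libraries, and how far it sets the NTS level of Fosl1 was not tested.

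**Figure D3:**
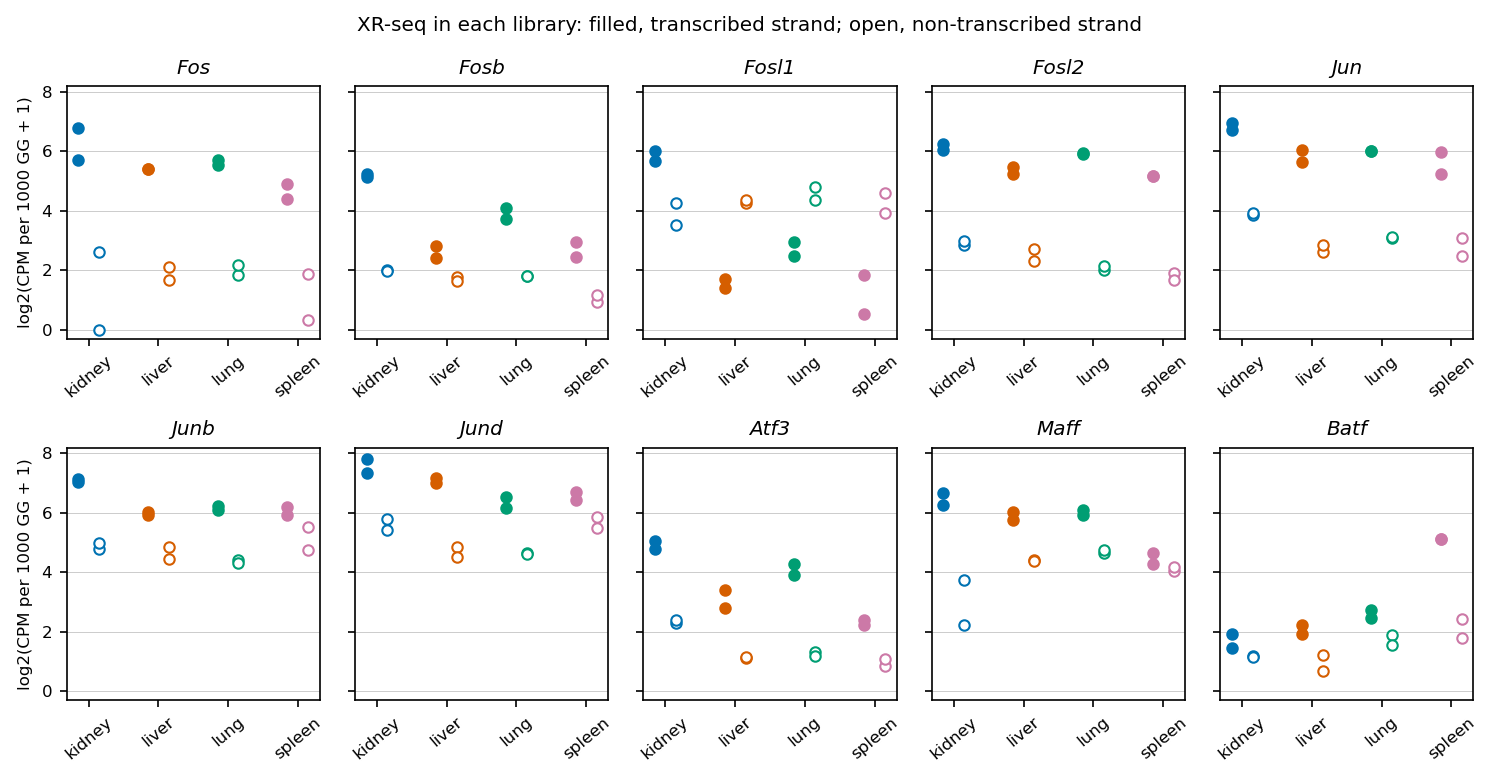
XR-seq reads of each AP-1 gene in every library as log2(CPM per 1000 GG + 1), by organ. Filled points are the transcribed strand and open points the non-transcribed strand. Filled points lie above open ones for most genes, and for Fosl1 they do so in kidney (50.1 and 62.8 against 10.3 and 18.0 CPM per 1000 GG) and lie below in the other 3 organs.

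Among the other members, the ratio of TS to NTS in kidney was 12.9 for Maff, 11.9 for Fosb, 10.7 for Fosl2, 8.07 for Jun, 7.14 for Atf3, 4.73 for Junb and 3.98 for Jund. Jun had ratios of 10.0 in liver, 8.32 in lung and 8.13 in spleen. Over all genes the median log2 ratio was 2.46 for kidney, 1.84 for liver, 2.82 for lung and 2.80 for spleen. On this log2 scale the kidney ratios of Junb (2.24), Fosl1 (2.04), Jund (1.99) and Batf (0.82) were below the kidney median. Those of the other members were above it. The pairs without a call were Batf in kidney (log2 0.82 ± 0.56, SE) and lung (1.15 ± 0.54), Fosb in liver (1.18 ± 0.54) and Maff in spleen (0.37 ± 0.32). Maff had TS values of 18.2 and 23.9 and NTS values of 15.5 and 16.9 in spleen, against 76.1 and 100.4 on TS and 3.65 and 12.2 on NTS in kidney.

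Between organs, TS repair differed for all 10 members (58.8% of 20675 genes), and NTS repair for 4, Fosl2, Jund, Atf3 and Maff (30.7%). Both kidney libraries lay above the 6 others on TS for 8 members, all but Fos and Batf (15.3% of genes). Atf3 had 26.5 and 32.1 in kidney, 14.0 and 18.4 in lung, 9.48 and 5.87 in liver and 3.63 and 4.19 in spleen (TS, CPM per 1000 GG, edgeR adjusted p = 1.33e-06). Jun had 123 and 103 in kidney and 37.0 to 64.6 in the 6 other libraries (0.00895). Jund reached 221 and 163 in kidney, the highest TS values of all, against 70.8 to 143 elsewhere (0.00108).

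Junb stood at 129.9 and 139 in kidney and at 59.1 to 74.4 elsewhere (TS, CPM per 1000 GG), and Fosb at 36.9 and 34.0 against 4.35 to 16.1. The kidney libraries of Fosl2 were 65.6 and 74.4 and the next highest those of lung, 60.0 and 59.1. Fos overlapped between kidney (51.1 and 109) and lung (45.4 and 51.7), with spleen lowest at 19.9 and 29.2.

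Batf had spleen highest and kidney lowest on TS, with 34.0 and 34.0 in spleen, 4.50 and 5.69 in lung, 3.71 and 2.79 in liver and 1.72 and 2.74 in kidney (TS, CPM per 1000 GG, edgeR adjusted p = 1.78e-07). It was the 1 member with both spleen libraries above the others (11% of genes). Its mean RNA level in the cisplatin libraries had the same order of organs, 21.1 RPKM in spleen, 3.41 in lung, 0.805 in liver and 0.232 in kidney. Such a match was also seen for Atf3 and for no other member. Mean Jun RNA after cisplatin, for example, was higher in lung (102 RPKM) than in kidney (88.5 RPKM), whereas its TS repair was highest in kidney. On NTS, Maff differed in the other direction from TS, with 3.65 and 12.2 in kidney below all other libraries (15.5 to 26.0), while Fosl1 NTS was not called (edgeR adjusted p = 0.416) and its TS was (1.31e-06).

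Damage-seq had few reads on single genes, from 0 to 344 per member, strand and library, so the strand effect was tested as 1 effect common to the 4 organs. Adducts on TS were fewer than on NTS for 3 members (33.6% of 22939 genes), Fosl2 (log2 −1.12 ± 0.15, SE), Fos (−0.99 ± 0.29) and Maff (−0.78 ± 0.19). They were more numerous on TS for Fosl1 (0.74 ± 0.24, 1.75% of genes), the member whose XR-seq was low on TS outside kidney. The overlap of Fosl1 with Ccdc85b applies to Damage-seq as well. Ccdc85b had 0 to 3 Damage-seq reads per strand and library, and its part in the Fosl1 difference was not tested. The median over all genes was −0.23. The call of Fos was lost without kidney replicate 2 (edgeR adjusted p = 0.0701), and that of Fosl1 without lung replicate 1 or 2 (up to 0.0887).

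Within organs, 4 members were lower on TS in kidney, Fos, Fosl2, Atf3 and Maff (18.8% of genes), and 0 were higher (0.353%, with 0 at an unadjusted p under 0.05). In liver Fosl2 was lower (29.5%) and Junb higher (0.868%). In lung Fosl2 was lower (24.5%) and Fosl1 higher (1.45%), and in spleen edgeR called 0 members lower (11.8%) or higher (0.532%), with 0 at an unadjusted p under 0.05. The kidney values of Fos were 12.7 and 7.14 on TS and 24.2 and 27.9 on NTS (CPM per 1000 GG). The lung values of Fosl1 were 13.3 and 13.2 on TS and 3.22 and 4.38 on NTS, a ratio of 3.44. The liver ratio of Junb, 5.27, rested on 18 reads on TS and 3 on NTS.

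**Figure D4:**
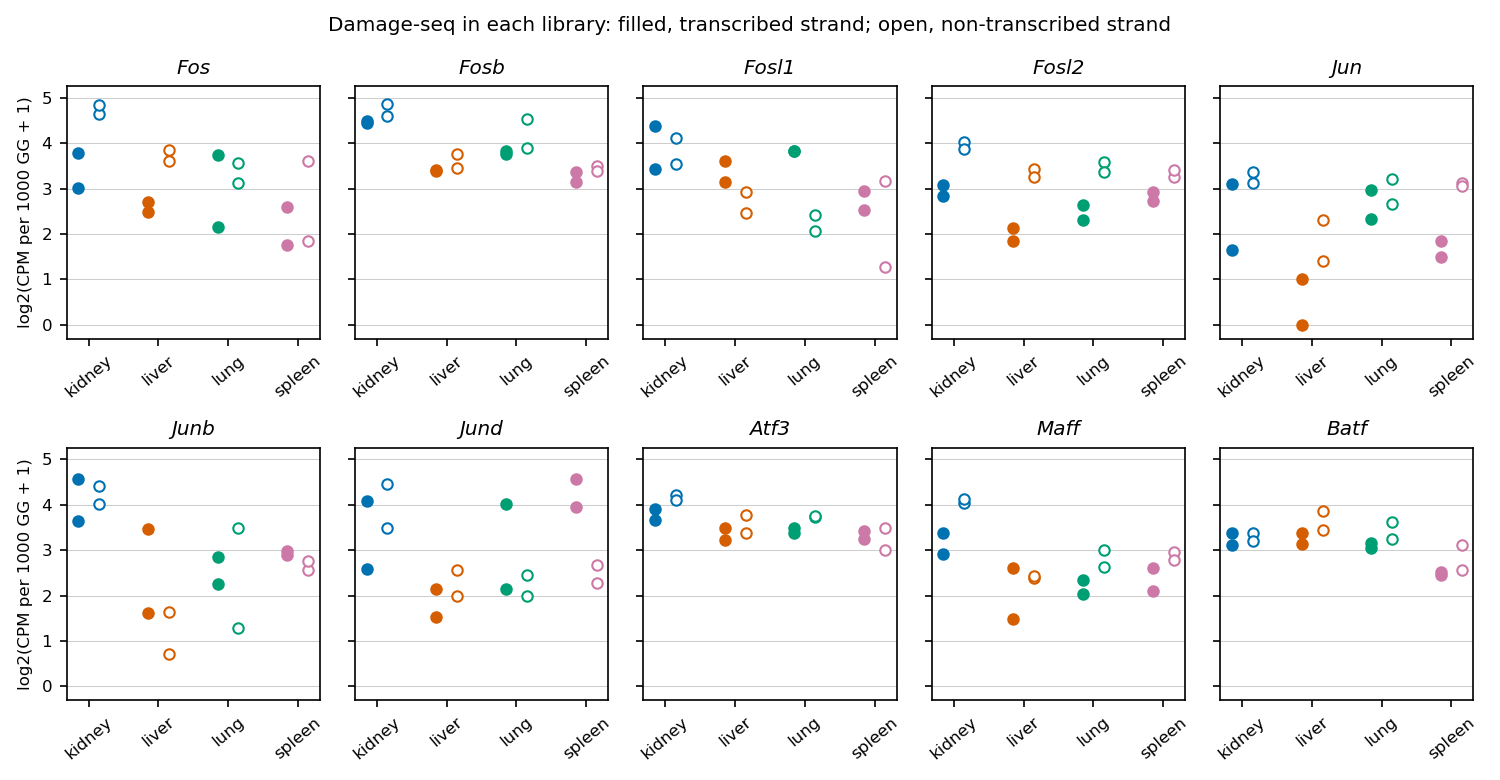
Damage-seq reads of each AP-1 gene in every library as log2(CPM per 1000 GG + 1), by organ. Filled points are the transcribed strand and open points the non-transcribed strand. Fosl2 has its open points above the filled ones in all organs, Fosl1 in lung has the filled ones above (13.3 and 13.2 against 3.22 and 4.38 CPM per 1000 GG), and open points of kidney are the highest for 8 genes.

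Between organs, damage on TS differed for 5 members, Fosb, Fosl1, Fosl2, Junb and Maff (30.3% of 21960 genes), and damage on NTS for 6, Fos, Fosb, Fosl1, Junb, Atf3 and Maff (17.3%). The TS count fell to 1 without kidney replicate 2 and to 2 without liver replicate 1. Both kidney libraries lay above the 6 others for 4 members on TS, Fosb, Junb, Atf3 and Maff (20.8% of genes), and for 8 on NTS, all but Jun and Batf (19.2%). Fosb had 20.9 and 21.6 on TS in kidney against 7.86 to 13.2 elsewhere. Maff had 15.4 and 16.5 on NTS in kidney against 4.27 to 7.08 elsewhere (edgeR adjusted p = 1.38e-06).

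The NTS of Junb held 15.2 and 20.2 in kidney and 0.639 to 10.2 elsewhere (CPM per 1000 GG), with lung replicates of 1.45 and 10.2 far apart. Jun was not called between organs on either strand. Its TS had 12 and 3 reads in kidney and 0 in liver replicate 2, which allows up to 5.0 CPM per 1000 GG for 3 reads. Batf had the lowest values in spleen on TS, 4.47 and 4.77 against 7.26 to 9.40 elsewhere, not called.

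Taking each of 14 RNA-seq samples (summed controls counted once) as a deviation from the control mean of its organ, the genes whose log2 CPM followed Fos most closely were Pkd1l3 (Pearson r = 0.967), AA414768 (0.962), Rraga (0.960), Emc7 (0.959) and Adnp2 (0.956). Those closest to Atf3 were Csrnp2 (0.993), Btg2 (0.991), Ythdf1 (0.990), Lgals3 (0.990) and Klf6 (0.989). These are descriptions over 19100 genes and over samples that share organ, treatment and depth.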

How the data were processed

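RNA-seq, XR-seq and Damage-seq reads were counted per gene by the authors and deposited as raw counts without normalization. Per the labels and the paper, XR-seq and Damage-seq reads were trimmed with cutadapt, aligned to mm10 with BWA, freed of duplicates with Picard and split by strand, and RNA-seq reads were aligned with STAR and counted with featureCounts without strand. Versions are not given in the sources used here.

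The members and gene lists were chosen with earlier results of these data known. Tests used quasi-likelihood fits of edgeR 4.0.16 in R 4.3.3. RNA-seq fits used TMM scaling and filterByExpr and, for the response of each organ, glmTreat with a log2 threshold of 0.4. XR-seq and Damage-seq fits were scaled to the reads on genes of both strands, without TMM. With summed controls lung and spleen had 1 residual degree of freedom, and the control was assumed to vary like the cisplatin pair. In the strand tests of XR-seq and Damage-seq, genes needed 20 reads over the libraries and 10 GG on both strands. In the tests between organs they needed 20 reads on the strand tested, with no limit on GG. Damage-seq pairs were kept apart although their index was 1.43 to 3.11. RPKM used exon lengths of GENCODE M21. DESeq2 1.42.0, limma 3.58.1 on log2 values with a pseudocount of 1, other scaling and filters and leaving out libraries were alternatives. The edgeR fits of the organ response, the interaction, the main strand effects and TS between organs were run on simulated data. The alternatives and the remaining tests were not. Figures and tables used Python 3.11.15.

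Genes named beyond the members were, in each organ, up to the 5 list genes with the largest called change, the 5 genes nearest to Fos and to Atf3, and genes overlapping a member. In kidney these were Plaur, Lif, Bach2, Dusp1 and Map2k6, and the other list genes were named after their values were seen.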

Additional observations from a re-analysis of the deposited data

Results flagged for a closer look

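The response to cisplatin differed between organs by the interaction test for 4 members. The F value with 3 degrees of freedom was 59.3 for Fosl1, 31.6 for Atf3, 29.5 for Jun and 21.6 for Junb. In each of them kidney had the largest log2 fold change, and for Fosl1 the liver libraries held 4 to 12 reads each. No group had more than 2 libraries, so no single library was tested as an outlier.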

How the results depend on the processing

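The numbers of called members in kidney (8 to 9), spleen (0), control levels (9), XR-seq strand (30 to 38), XR-seq between organs (10) and Damage-seq strand (3 to 6) stayed within 1.5 times under every alternative run. In kidney Jund was not called with all organs in one fit (adjusted p = 0.183). Liver went from 0 to 2 with DESeq2, 2 without the filter, 4 with the replicate block (Fos, Jun, Jund and Atf3), 3 with all organs in one fit, and 0 to 3 leaving out 1 library (3 without cisplatin replicate 1, 2 without cisplatin replicate 2). Lung went from 1 to 2 without the filter, 3 with the replicate block, 3 with each control library as a replicate, 0 with all organs in one fit, and 0 to 1 leaving out a control. Without a cisplatin replicate, lung and spleen had no test. The response between organs went from 4 to 8 with each control library as a replicate, 8 without the filter, 8 with the replicate block, and 1 to 7 leaving out 1 library. TS damage between organs went from 5 to 2 with TMM, 0 with limma, which called 0 genes in all, and 1 to 6 leaving out 1 library. The replicate block left kidney at 9, XR-seq between organs at 10 and TS damage at 5. Same-numbered RNA-seq libraries deviated together with correlations of 0.0591 (lung) to 0.476 (kidney), and XR-seq and Damage-seq libraries with −0.0811 to 0.0717. The numbers were not taken as pairs, because no label ties one to an animal, litter or day and an organ has only 2 of them. The RNA-seq correlations of kidney, liver and spleen were 0.331 to 0.476, so a pairing there was not settled.

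Values that changed sign had no call. Leaving out 1 library, the log2 fold change ranged from −2.12 to 0.39 for kidney Batf, −0.65 to 0.21 for liver Fosb, −0.11 to 0.31 for lung Junb, −0.0830 to 0.28 for lung Jund, −0.20 to 0.73 for spleen Atf3 and −0.13 to 0.68 for spleen Maff. The kidney response minus that of liver ranged from −0.73 to 1.00 for Jund (0.0743 with the replicate block), that minus lung from −1.60 to 1.12 for Batf (−0.00848 with RLE scaling), and that minus spleen from −2.45 to 0.23 for Batf. The strand difference in Damage-seq ranged from −0.0543 to 0.50 for Junb and −0.0163 to 0.63 for Jund. The cause of these changes was not tested. Counts were low for Batf in kidney (2 to 43 reads per library) and Fosb in liver (8 to 22 reads) in RNA-seq and for Jun on TS in Damage-seq (0 reads in liver replicate 2).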
